A study of Homo sapiens with 6 samples.

Results

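The nuclear receptors are the transcription factors that cells switch with small fat-soluble ligands. The members were taken by name from a list of 46 genes of this family, and 11 of them were measured among the 14812 named genes on the arrays, each by 1 probe. These were the estrogen receptors ESR1 and ESR2, the progesterone receptor PGR, the estrogen-related receptors ESRRA, ESRRB and ESRRG, the peroxisome proliferator-activated receptors PPARA, PPARD and PPARG, and the retinoic acid receptor-related orphan receptors RORA and RORB. Of these 11, PPARG alone reached an unadjusted p under 0.05 from limma, as did 4.26% of all genes, and its mean was 1.17-fold lower in shNDRG1 cells. After adjustment 0 members passed, and 0% of all genes. The other 35 were matched to no named probe and were not analysed here, while 28794 of the 44629 probes carried no gene name and were not used. Counts of measured genes refer to genes matched to a named probe. The 35 are both thyroid hormone receptors (THRA and THRB), all 6 retinoid receptors (RARA, RARB, RARG, RXRA, RXRB and RXRG), the corticosteroid receptors NR3C1 and NR3C2, the oxysterol and bile acid receptors NR1H2, NR1H3 and NR1H4, VDR, NR1I2, NR1I3, NR1D1, NR1D2, HNF4A and HNF4G. The list is completed by the 7 NR2 orphan receptors (NR2C1, NR2C2, NR2E1, NR2E3, NR2F1, NR2F2 and NR2F6), NR4A1, NR4A2, NR4A3, NR5A1, NR5A2, NR6A1, NR0B1 and NR0B2. The thyroid hormone and retinoid classes could therefore be set beside the steroid and lipid classes by their target genes only.

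A nuclear receptor binds DNA through a pair of zinc fingers, most often at copies of the half-site AGGTCA, and binds its ligand through a separate domain. Without ligand several of these receptors hold corepressors at their target genes, and ligand exchanges the corepressors for coactivators. The PPARs are fatty acid sensors, among which PPARG is best known for fat cell formation and lipid storage. Estrogen and progesterone receptors mark luminal, hormone-responsive breast cancers.

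SKBR3 is an established human breast cancer line with HER2 amplification and is known as estrogen receptor-negative. Its transcripts were measured on 6 Affymetrix Gene ST arrays. Of these, 3 came from cells expressing NDRG1 shRNA (shNDRG1) and 3 from cells expressing an shRNA against GFP (shGFP control). All cultures were grown in DMEM with fetal bovine serum. The labels of the arrays of batch 1 read -DFO, and those of the other batches read minusDFO. The hyphen may be a minus sign or a separator, so the DFO status of batch 1 is not certain. The labels do not explain DFO, but the paper uses it for deferoxamine, an iron chelator. The methods describe lentiviral shRNAs with puromycin selection and 3 independent biological replicates, name the control a vector control, and give 1 NDRG1 hairpin for the arrays, so that lower NDRG1 and other effects of that hairpin cannot be told apart. The labels number 3 batches with 1 array of each group in each, without saying what a batch is. The values are log2 values (the base is assumed) from which the authors had subtracted a baseline for each probe. Differences between arrays can be read from them, but no expression level, so that it could not be checked whether a receptor was expressed in these cells, nor whether the markers of SKBR3 cells were present. Differences are shNDRG1 minus shGFP control.

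The targeted gene NDRG1 was 2.01-fold lower in shNDRG1 cells, with log2 differences of -0.79, -1.16 and -1.07 within batches 1, 2 and 3 (adjusted p = 0.652 from limma). On the first principal component (72% of the variance) both arrays of batch 2 lay apart from most others, at 21.97 (shNDRG1) and 31.12 (control). In batch 3 the shNDRG1 array lay at 1.11 on it and the control array at -17.1. The 5 members PPARG, PPARD, RORA, PGR and RORB, of which the last 4 changed sign without batch 2, are also given without that batch. PPARG, ESRRA and ESR1 had the largest differences in batch 3, and without batch 3 their log2 fold changes were -0.17, 0.060 and 0.031. Of 7 epithelial and HER2 luminal marker genes, 6 were measured, all 6 were below the control, with log2 fold changes of -0.44 to -0.11, and 2 had an unadjusted p under 0.05, or 1 with the batch as a block. In the lower direction 1.57% of all genes had such a p, or 3.74% with the block. Of 12 fibroblast, leukocyte and endothelial markers, 4 were measured, with log2 fold changes of 0.001 to 0.037. What part these markers have in the values below was not tested. In a culture, fewer cells that express a gene and less RNA per cell cannot be told apart.

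The sequence before the PPARG gene is shown first, since PPARG was the member with the smallest p. RefSeq (GRCh38.p14) gives 6 transcript starts for PPARG. The window printed is the one with the most copies of AGGTCA, with the 250 bases before its start, at chr3:12287118-12287367 on the plus strand. It is set beside the same window of ESRRA at chr11:64305274-64305523 on the plus strand, the member with the highest log2 fold change. Capitals mark AGGTCA and GGGTCA, the half-sites searched for, on either strand. Not every receptor of the family binds them, and half-sites of other letters were not searched for.
PPARG: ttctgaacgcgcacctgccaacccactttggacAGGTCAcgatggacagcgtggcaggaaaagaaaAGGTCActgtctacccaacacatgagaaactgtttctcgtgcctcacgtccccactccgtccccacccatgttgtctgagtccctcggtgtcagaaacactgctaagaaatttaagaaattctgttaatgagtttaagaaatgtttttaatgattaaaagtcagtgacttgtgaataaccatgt
ESRRA: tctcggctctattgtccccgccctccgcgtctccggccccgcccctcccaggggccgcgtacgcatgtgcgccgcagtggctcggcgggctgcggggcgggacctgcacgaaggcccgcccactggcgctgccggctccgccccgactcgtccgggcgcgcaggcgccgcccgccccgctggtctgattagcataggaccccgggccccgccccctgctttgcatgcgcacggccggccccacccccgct
The PPARG window held AGGTCA at positions -217 and -184 from the start, both on the printed strand, and the ESRRA window held neither half-site. Of the 6 PPARG windows 3 held AGGTCA, and ESRRA has 1 window, so only the PPARG window was picked by its copies. Over the 38 windows of the 11 members, which overlap in part, 7 held AGGTCA, in the genes PPARG, ESR2 and ESRRG, and 4 held GGGTCA. Among all 35116 windows of RefSeq starts, 12.1% held AGGTCA and 12.1% held GGGTCA. Also searched, on both strands, were AGGTCA repeated in the same direction with 1 or 4 bases between the copies, the palindrome of GGTCA and TGACC with 3 bases between them, and the extended half-site TNAAGGTCA, which contains AGGTCA. None of the 38 windows held any of these 4 motifs. Of all windows, 0.0171% held the repeat spaced by 1 base, 0.0142% the repeat spaced by 4, 0.0399% the palindrome and 0.854% the extended half-site. These are matches of letters in a window of fixed length and give no information on binding.

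PPARG was lower in shNDRG1 cells in every batch. Its log2 values were -0.029, -0.051 and -0.17 in shNDRG1 cells of batches 1, 2 and 3, against 0.24, 0.015 and 0.17 in shGFP control cells. All 3 shNDRG1 arrays lay below all 3 control arrays, and the smallest gap was in batch 2, where the arrays differed by -0.066, against -0.27 and -0.34 in batches 1 and 3. The mean was -0.083 ± 0.076 in shNDRG1 cells and 0.14 ± 0.11 in shGFP control cells (SD, n = 3 each), a log2 fold change of -0.22 with a standard error (SE) of 0.08 and a 95% interval of -0.42 to -0.03. The unadjusted p was 0.0306 and the adjusted p was 1 from limma, and a second fit that took the batch as a block gave 0.0331 and 0.475. PPARG had rank 399 by p among the 14812 genes. A two-sided exact permutation test of its 6 arrays gave p = 0.1, the smallest that 3 against 3 allow. Without batch 2 the log2 fold change of PPARG was -0.30 (unadjusted p = 0.0171 from limma). Without batch 1 or without batch 3 it was -0.20 and -0.17, and the unadjusted p was 0.112 and 0.212.

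**Figure D1:**
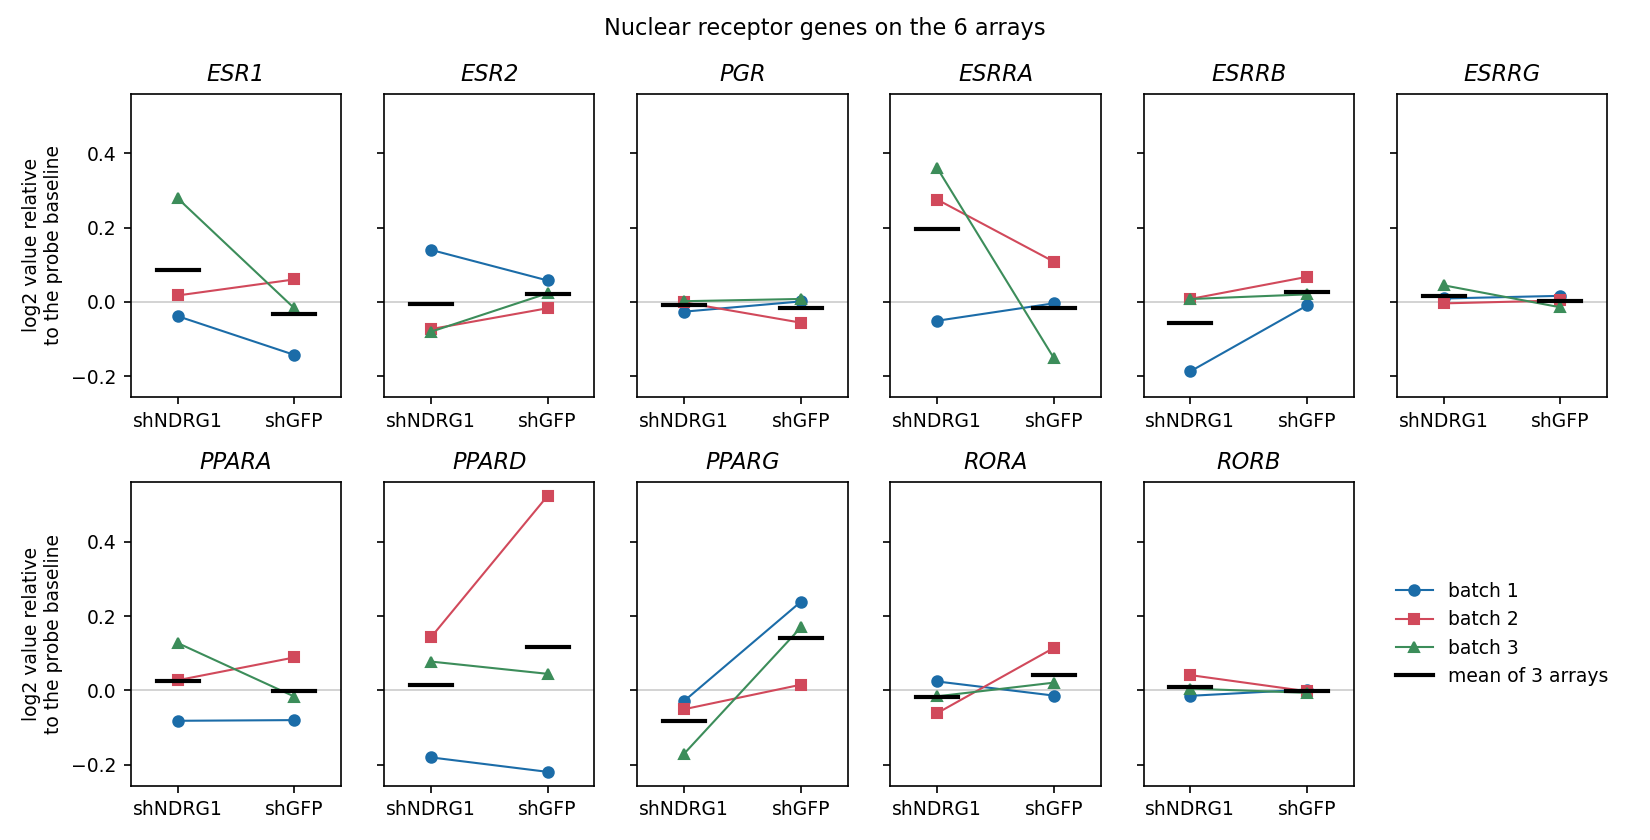
Log2 values relative to the probe baseline (vertical axis) of the 11 nuclear receptor genes in shNDRG1 and shGFP control cells. Points are single arrays, lines join the arrays of a batch and black bars are means of 3 arrays. PPARG is the panel in which all shNDRG1 arrays (-0.17 to -0.029) lie below all control arrays (0.015 to 0.24), and in PPARD the control array of batch 2 (0.52) stands far above the other arrays.

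The groups overlapped in the other fatty acid sensors. PPARA, which drives fatty acid oxidation in liver, had log2 values of -0.082, 0.027 and 0.13 in shNDRG1 cells of batches 1, 2 and 3, against -0.080, 0.089 and -0.017 in shGFP control cells. The groups overlapped, and the log2 fold change was 0.027 (SE 0.08, 95% interval -0.16 to 0.22). PPARD, the widely expressed member of the group, had -0.18, 0.14 and 0.078 in shNDRG1 cells, against -0.22, 0.52 and 0.045 in shGFP control cells. Both groups were high in batch 2 and low in batch 1, and the control array of batch 2 was the highest of the 6. The log2 fold change of PPARD was -0.10 (SE 0.21, 95% interval -0.62 to 0.41), and without batch 2 it was 0.036. With the batch as a block the 95% interval of PPARD was -0.39 to 0.18 (SE 0.11). Differences between the 3 PPAR genes were not tested.

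The steroid hormone receptors overlapped between the groups. ESR1, which encodes estrogen receptor alpha, had log2 values of -0.038, 0.017 and 0.28 in shNDRG1 cells of batches 1, 2 and 3, against -0.14, 0.061 and -0.017 in shGFP control cells. The widest gap was in batch 3, with differences of 0.10, -0.043 and 0.30 within the batches, and the log2 fold change was 0.12 (SE 0.10, unadjusted p = 0.301 from limma). ESR2, which encodes estrogen receptor beta, had 0.14, -0.073 and -0.080 in shNDRG1 cells, against 0.058, -0.017 and 0.023 in shGFP control cells. The shNDRG1 arrays of ESR2 thus lay on both sides of the control arrays, with a log2 fold change of -0.026 (SE 0.08). PGR, the progesterone receptor and itself a gene that estrogen receptor alpha activates, lay between -0.026 and 0.002 in shNDRG1 cells and between -0.056 and 0.008 in shGFP control cells. Its log2 fold change was 0.007 (SE 0.04, 95% interval -0.10 to 0.12), and without batch 2 it was -0.017.

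The estrogen-related receptors share the DNA-binding domain of the estrogen receptors but bind no estrogen, and ESRRA is known as a regulator of mitochondrial genes. ESRRA had log2 values of -0.051, 0.28 and 0.36 in shNDRG1 cells of batches 1, 2 and 3, against -0.004, 0.11 and -0.15 in shGFP control cells. The arrays of shNDRG1 cells were higher in batches 2 and 3 and slightly lower in batch 1, with differences of -0.047, 0.17 and 0.51. Its log2 fold change of 0.21 (SE 0.13, 95% interval -0.11 to 0.53) was the highest of the 11 members, with an unadjusted p of 0.160 from limma, or 0.149 in the blocked fit. ESRRB, known for its part in stem cell pluripotency in the mouse, had -0.19, 0.008 and 0.008 in shNDRG1 cells, against -0.009, 0.068 and 0.020 in shGFP control cells. It was lower in all 3 batches, by -0.18, -0.060 and -0.013, yet the groups overlapped, and the log2 fold change was -0.083 (SE 0.07, unadjusted p = 0.285 from limma). ESRRG had 0.009, -0.004 and 0.045 in shNDRG1 cells, against 0.016, 0.004 and -0.014 in shGFP control cells. Its log2 fold change was 0.015 (SE 0.04), with the groups overlapping.

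RORA and RORB bind single half-sites and are known as activators of clock genes. RORA had log2 values of 0.024, -0.061 and -0.016 in shNDRG1 cells of batches 1, 2 and 3, against -0.014, 0.11 and 0.021 in shGFP control cells. The arrays differed most in batch 2, by -0.18, and the log2 fold change was -0.058 (SE 0.06, unadjusted p = 0.336 from limma). Without batch 2 the log2 fold change of RORA was 0.0006. RORB had -0.014, 0.041 and 0.005 in shNDRG1 cells, against 0.002, -0.002 and -0.006 in shGFP control cells. It varied least of all members, with a log2 fold change of 0.013 (SE 0.04), which was -0.00275 without batch 2.

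Counted over the family, 6 of the 11 members were above the control and 5 below, with a median log2 fold change of 0.007, which was also the median of all 14812 genes. At an adjusted p under 0.05 from limma, 0 members and 0 of all genes (0%) passed. At an unadjusted p under 0.05, 1 of the 11 passed, against 4.26% of all genes in either direction and 1.57% in the lower direction. In the blocked fit 1 of 11 passed, again PPARG, against 9.45% and 3.74% of all genes. In PPARG alone the groups did not overlap, with shNDRG1 lower, as in 3.21% of all genes, and in 0 members they parted with shNDRG1 higher, as in 5.14% of all genes. PPARG and ESRRB were lower in all 3 batches, against 12.5% of all genes, and 0 members were higher in all 3, against 17.1%. An absolute log2 fold change of 0.1 or more was seen in 4 of the 11 members (ESR1, ESRRA, PPARD and PPARG), against 31.8% of all genes. Over 11 genes a single gene moves such a share by much, and no difference between the family and all genes was tested.

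**Figure D2:**
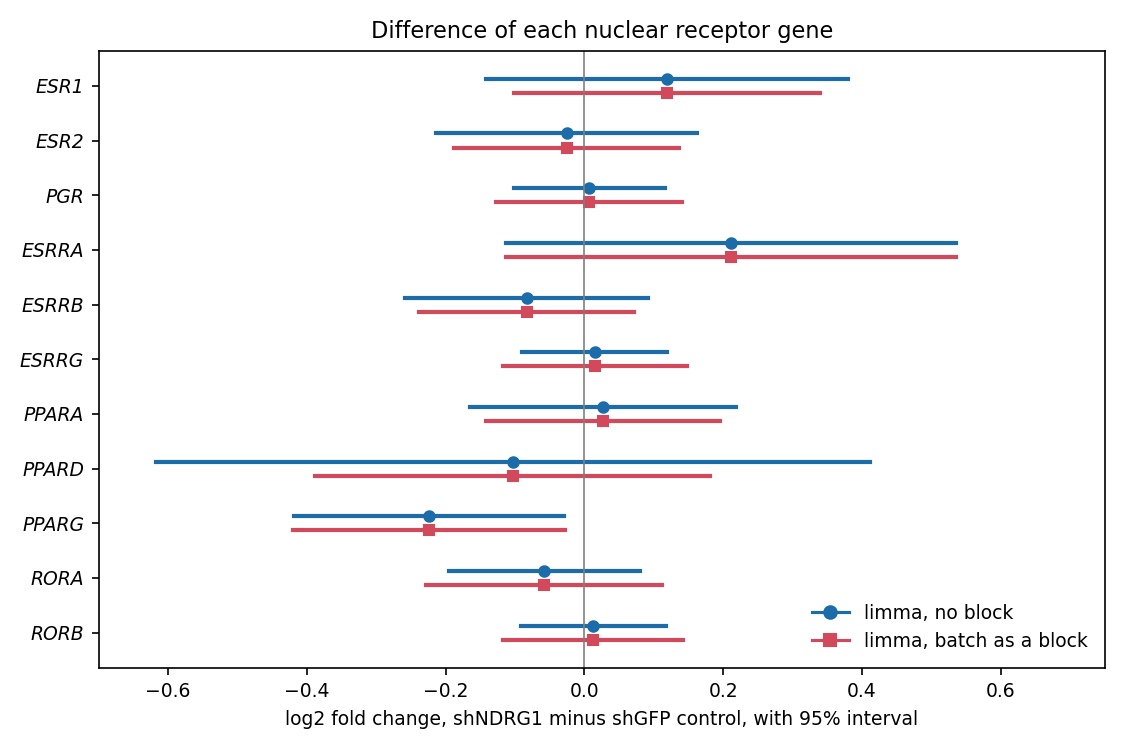
Log2 fold change of the 11 nuclear receptor genes, shNDRG1 minus shGFP control (horizontal axis), with 95% intervals from limma without a block (blue circles) and in the blocked fit (red squares). The interval of PPARG (-0.42 to -0.03) is the one that leaves out 0, and that of PPARD without the block (-0.62 to 0.41) is the widest.

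The members also differed in how much they varied over the 6 arrays at all. The range from the lowest to the highest array had a median of 0.22 over the members, against 0.33 over all genes, and 7 of the 11 members lay below the median of all genes. RORB, ESRRG and PGR had ranges of 0.056, 0.059 and 0.064, which stood at the percentiles 2.34, 2.81 and 3.48 of all genes. PPARD had the widest range, 0.74, at percentile 85.7, followed by ESRRA with 0.51 at percentile 71.4. Whether these probes lay near background could not be told, since the values hold no level. For PGR, ESRRG, RORA and RORB the 95% interval without the block lay within a log2 fold change of 0.2 in either direction, or 1.15-fold. With the block that of RORA was -0.23 to 0.11 and passed this bound, while those of PGR, ESRRG and RORB stayed within it.

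Coregulators are the proteins through which the receptors act on chromatin. Of 18 listed coactivators 13 were measured, 8 above the control and 5 below, and of 15 corepressors 13 were measured, 6 above and 7 below. NCOA6, a coactivator of many nuclear receptors, was lower in every batch, with log2 values of -0.0055, -0.15 and -0.26 in shNDRG1 cells of batches 1, 2 and 3, against 0.28, -0.0048 and 0.11 in shGFP control cells. The groups of NCOA6 just parted, with a log2 fold change of -0.27 (SE 0.10, unadjusted p = 0.0420, adjusted p = 1 from limma). BCOR, a corepressor best known as a partner of BCL6, had -0.23, -0.034 and -0.047 in shNDRG1 cells, against 0.28, 0.40 and 0.034 in shGFP control cells. All shNDRG1 arrays of BCOR were below all control arrays, with a log2 fold change of -0.34 (SE 0.11, unadjusted p = 0.0257, adjusted p = 1 from limma). Without overlap, shNDRG1 was lower in 3.21% of all genes and higher in 5.14%. The partner and target genes given array by array here and below were picked by their p, so parted groups are no further support. No other measured coregulator had an unadjusted p under 0.05 without the block, where 4.26% of all genes did. With the block 9.45% of all genes had such a p. The coactivator gene NCOA4 was also under 0.05 there, with a log2 fold change of 0.26 (SE 0.13 without the block), higher in all 3 batches. Its blocked p was 0.0446 (adjusted p = 0.512 from limma). The corepressor gene LCOR was lower in all 3 batches, with a log2 fold change of -0.14 (SE 0.25 without the block) and a blocked p of 0.0411 (adjusted p = 0.494 from limma).

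Ligand enzymes and carriers set how much hormone a cell holds. Of 29 listed enzymes that make or break down ligands 9 were measured, 6 above the control and 3 below, with a median log2 fold change of 0.15. RDH10, which takes the rate-limiting step from retinol towards retinoic acid, was 1.24-fold higher. Its log2 values were 0.11, 0.01 and -0.01 in shNDRG1 cells of batches 1, 2 and 3, against -0.12, -0.49 and -0.21 in shGFP control cells. The groups of RDH10 did not overlap, and the log2 fold change was 0.31 (SE 0.11, unadjusted p = 0.0310, adjusted p = 1 from limma). RDH11 and DHRS3, which reduce retinaldehyde, had log2 fold changes of 0.32 (SE 0.14) and 0.36 (SE 0.25). The unadjusted p of RDH11 was 0.0638 without the block and 0.00703 with it (blocked adjusted p = 0.363 from limma). HSD17B1, an enzyme of estradiol synthesis, had a log2 fold change of 0.15. Its unadjusted p was 0.261 without the block and 0.0356 with it (blocked adjusted p = 0.485 from limma). In the blocked fit 9.45% of all genes had an unadjusted p under 0.05. Of 15 ligand carriers 5 were measured, and 0 had an unadjusted p under 0.05 in either fit.

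The thyroid hormone, retinoid, glucocorticoid and vitamin D receptors were not analysed here, and their listed target genes were read instead. Of 8 thyroid hormone receptor targets 5 were measured, 4 below the control and 1 above. THRSP, the thyroid hormone responsive gene that encodes Spot14, was the lowest, with a log2 fold change of -1.27 (SE 0.33). The unadjusted p of THRSP from limma was 0.00998 without the block (adjusted p = 0.902) and 0.000726 with it (adjusted p = 0.304). Of the rest, BCL3 was at -0.40, KLF9 at -0.17, HR at -0.040 and MBP at 0.20, and all 4 had an unadjusted p over 0.05 without the block. In the blocked fit the unadjusted p of BCL3 was 0.0396 (adjusted p = 0.493 from limma). Of 16 retinoic acid receptor targets 9 were measured, 6 above and 3 below, with a median log2 fold change of 0.015. PLAAT4, a retinoid-induced phospholipase and acyltransferase, had the highest log2 fold change of them, 0.61 (SE 0.28), with an unadjusted p of 0.0781 from limma without the block and 0.00206 with it (adjusted p = 0.304). Of 15 glucocorticoid receptor targets 11 were measured, 4 above and 7 below. The metallothionein genes MT2A and MT1X had log2 fold changes of -0.47 (SE 0.22) and -0.50 (SE 0.40). Their unadjusted p from limma was 0.0856 and 0.255 without the block. The blocked fit, in which 9.45% of all genes were under 0.05, gave 0.00817 and 0.00350 (adjusted p = 0.367 and 0.318 from limma). ERRFI1, which encodes an inhibitor of EGFR family receptors, was higher in all 3 batches, with a log2 fold change of 0.26 (SE 0.13). Its unadjusted p was 0.0861 without the block and 0.0416 in the blocked fit (adjusted p = 0.494 from limma). Of 10 vitamin D receptor targets 6 were measured, with log2 fold changes of -0.039 to 0.037.

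The target genes of the lipid receptors did not share a direction. Of 20 listed PPAR targets 9 were measured, 5 above the control and 4 below. VLDLR, which takes up triglyceride-rich lipoproteins, was 2.00-fold higher, with log2 differences of 1.08, 0.94 and 0.99 within batches 1, 2 and 3 (adjusted p = 0.187 from limma). The other 8 ranged from -0.21 to 0.087, and none had an unadjusted p under 0.05. The fatty acid transporter CD36 was at 7e-05, LPL at 0.023, ACSL1 at 0.016, and PLIN2, the lipid droplet coat gene, at 0.087 on the log2 scale. CPT1A, the entry enzyme of mitochondrial fatty acid oxidation, was at -0.094, ANGPTL4 at -0.11 and ACAA2 at -0.21. Of 16 oxysterol receptor (LXR) targets 9 were measured, 4 above and 5 below, with a median log2 fold change of -0.12. The ubiquitin ligase gene MYLIP had a log2 fold change of -0.18 and FASN of -0.23. Their unadjusted p from limma was 0.136 and 0.306 without the block. With the block it was 0.0417 and 0.0219 (adjusted p = 0.494 and 0.439 from limma), where 9.45% of all genes were under 0.05. The 3 measured targets of the bile acid receptor ranged from -0.024 to 0.051.

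**Figure D3:**
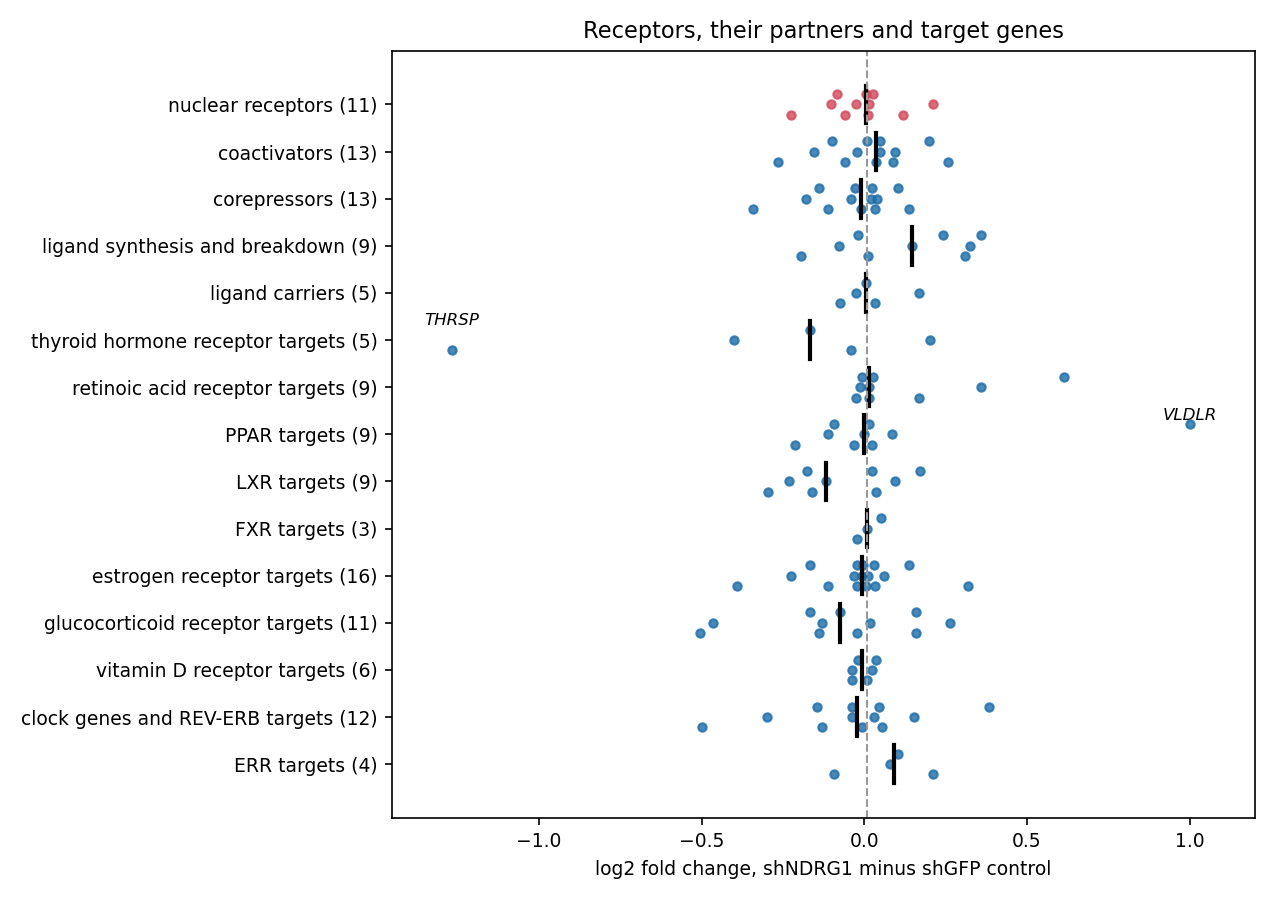
Log2 fold change, shNDRG1 minus shGFP control (horizontal axis), of the 11 nuclear receptor genes (red) and of the measured genes in 14 lists of coregulators, ligand enzymes, carriers and target genes (blue), with the number measured in brackets. Black bars are list medians and the dashed line is the median of all genes (0.007). The receptors lie between -0.22 and 0.21, whereas the listed targets reach from -1.27 (THRSP) to 1.001 (VLDLR).

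Of 18 estrogen receptor targets 16 were measured, 7 above the control and 9 below. XBP1, a transcription factor of the unfolded protein response, was 1.31-fold lower, with log2 values of 0.048, -0.29 and -0.048 in shNDRG1 cells of batches 1, 2 and 3, against 0.33, 0.29 and 0.26 in shGFP control cells. CA12, a carbonic anhydrase, was 1.25-fold higher, with 0.14, 0.23 and 0.43 in shNDRG1 cells, against 0.007, -0.15 and -0.007 in shGFP control cells. The unadjusted p was 0.00716 for XBP1 and 0.0162 for CA12 (adjusted p = 0.841 and 1 from limma). In both, picked by that p, the groups did not overlap, as in 3.21% of all genes with shNDRG1 lower and 5.14% with it higher. The classical targets GREB1, TFF1 and PDZK1 had log2 fold changes of -0.022, 0.030 and -0.024. Of 12 targets of estrogen-related receptors 4 were measured, ESRRA among them, and COX5B was at 0.10, IDH3A at 0.079 and CPT1A at -0.094.

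Of 17 clock genes and REV-ERB targets 12 were measured, 5 above the control and 7 below. PER2, a repressor of the clock, had log2 values of 0.025, 0.086 and 0.13 in shNDRG1 cells of batches 1, 2 and 3, against -0.025, -0.12 and -0.071 in shGFP control cells. The groups of PER2 did not overlap, with a log2 fold change of 0.15 (SE 0.05, unadjusted p = 0.0297, adjusted p = 1 from limma), and in the blocked fit its unadjusted p was 0.0547. E2F8, better known as a cell cycle transcription factor, had -0.018, -0.15 and -0.53 in shNDRG1 cells, against 0.45, 0.018 and 0.33 in shGFP control cells. Its log2 fold change was -0.50 (SE 0.17, unadjusted p = 0.0315, adjusted p = 1 from limma). The core clock genes BMAL1 and CLOCK had log2 fold changes of 0.045 (SE 0.06) and -0.30 (SE 0.43).

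Over all 113 measured genes of these lists that are not receptors of the family, 57 were above the control and 56 below. At an unadjusted p under 0.05 from limma 4 were higher and 5 lower, against 399 and 232 of all 14812 genes, and the blocked fit gave 8 higher and 11 lower, against 845 and 554. None passed after adjustment in either fit. The windows of 250 bases before the starts of THRSP and VLDLR, the listed target genes at the extremes, are printed with the half-sites in capitals as above (RefSeq, GRCh38.p14). THRSP lies at chr11:78063611-78063860 and VLDLR at chr9:2621537-2621786, both on the plus strand.
THRSP: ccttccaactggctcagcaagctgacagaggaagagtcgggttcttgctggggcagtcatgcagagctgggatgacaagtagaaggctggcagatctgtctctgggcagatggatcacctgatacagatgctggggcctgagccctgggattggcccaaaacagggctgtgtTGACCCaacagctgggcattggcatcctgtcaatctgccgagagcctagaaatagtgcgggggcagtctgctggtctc
VLDLR: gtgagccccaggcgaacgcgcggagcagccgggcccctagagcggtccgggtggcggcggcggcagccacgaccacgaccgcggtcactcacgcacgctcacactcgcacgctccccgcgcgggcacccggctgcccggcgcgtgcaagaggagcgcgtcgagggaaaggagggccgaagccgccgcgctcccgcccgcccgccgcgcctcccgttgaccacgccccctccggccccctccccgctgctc
The THRSP window held the reverse complement of GGGTCA at position -78 and no AGGTCA, and the VLDLR window held neither.

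**Figure D4:**
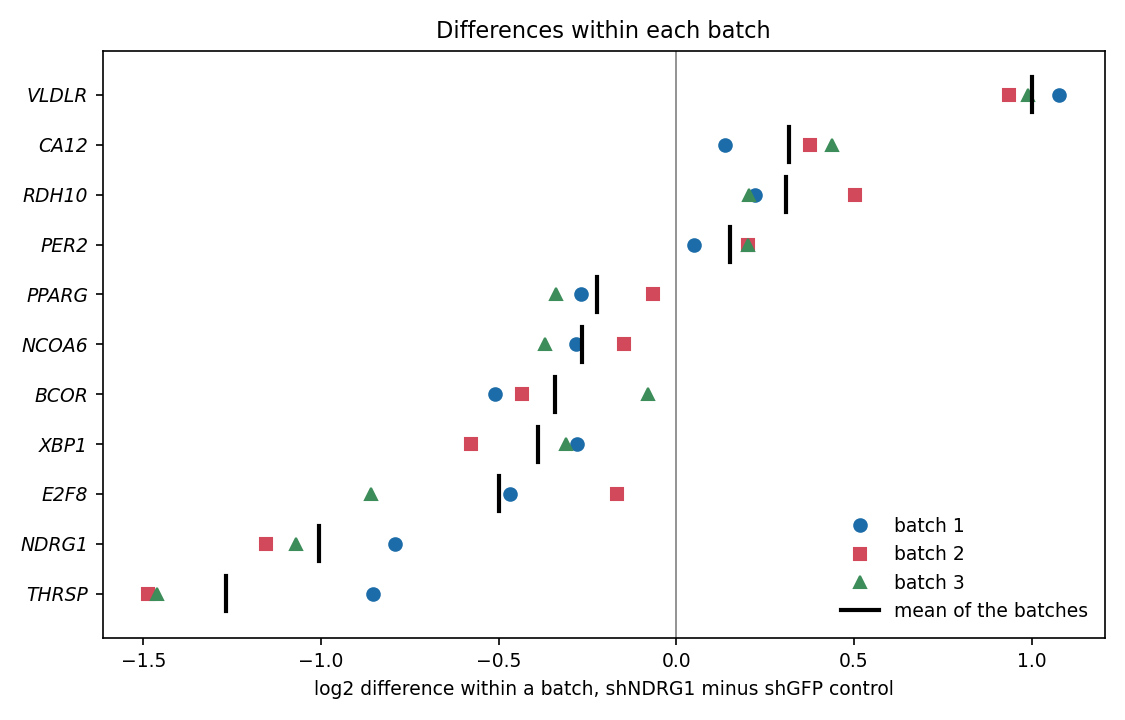
Log2 difference within each batch, shNDRG1 minus shGFP control (horizontal axis), for NDRG1, PPARG and the listed partner and target genes with an unadjusted p under 0.05. Points are batches and black bars their means. All 11 genes differ in the same direction in all 3 batches, from VLDLR (0.94 to 1.08) to THRSP (-1.49 to -0.85). Apart from NDRG1 they were picked by their p from these same arrays, so their agreement over batches is no independent support. Of all genes, 12.5% were lower and 17.1% higher in all 3 batches.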

How the data were processed

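RNA of 6 SKBR3 cultures, 3 shNDRG1 and 3 shGFP control, had been hybridized to Affymetrix Gene 2.0 ST arrays. Array quality was examined by the authors in Affymetrix Expression Console. Per the methods, PLIER with quantile normalization was then run in GeneSpring GX11.5, followed by a baseline transformation to the control median (the submitters' processing notes also name Expression Console and PLIER). The deposited values were taken as log2 values, although no source states the base. The control median was 0, within 1e-05, for 0.338% of the 44629 probes, so the baseline is not certain, but it cancels in differences between arrays.

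Probes with a symbol in the platform annotation (15835, of which 0 had several symbols) were averaged over 14812 genes, and 28794 unnamed probes were not used. Symbols were checked by gene identifier against GRCh38.p14, and 0 changed. The table had 0 unused columns of samples. No filter on dim probes was possible. Groups were compared over all 14812 genes with limma 3.58.1 in R 4.3.3 (lmFit and eBayes, no covariate, Benjamini-Hochberg over all genes, threshold 0.05), and the members were read from that fit. The number of arrays limits the precision. The paper names no test for the arrays. The batch number in the labels pairs the arrays, and deviations of paired arrays from their group means correlated over genes at 0.785, 0.833 and 0.163 for batch 1, 2 and 3. The batch therefore also entered a second, blocked fit. Permutation tests used scipy 1.17.1. The comparison was tested on simulated data.

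Values are given for NDRG1, every measured member, and up to 4 genes of each of the 14 partner and target lists by smallest p at an unadjusted p under 0.05. Other genes of those lists were named after their values were seen. The members and lists were chosen with earlier results of these data known. The alternatives were the block, the label day, normalization, variance models, array weights, probe handling, thresholds and leaving out arrays.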

Additional observations from a re-analysis of the deposited data

How the results depend on the processing

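After adjustment 0 nuclear receptor genes were called by limma under any alternative run, a threshold of 0.1 included, and among all genes 0 were called except with array weights (5). Where genes were called by 1.5-fold or more and unadjusted p below 0.05, 43 passed, with 0 receptors. At an unadjusted p under 0.05 alone, 1 receptor passed without the block and 1 with the batch number as a replicate block, PPARG in both, and the paired fit changed no call after adjustment. With array weights 4 passed (ESR1, ESRRA, PPARA and PPARG), against 19.8% of all genes, and leaving out arrays gave 0 to 2, against 1.96% to 6.87% of all genes. PPARG kept an unadjusted p under 0.05 in 12 of 18 alternatives. It missed that threshold on leaving out batch 1, batch 3, either of the shNDRG1 arrays 2 and 3, or either of the control arrays 1 and 3, with unadjusted p of 0.0567 to 0.212 from limma. Its log2 fold change stayed between -0.34 and -0.17, and its adjusted p ranged from 0.1 to 1 with limma.

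Directions near 0 turned. PGR was -0.0008 with array weights and -0.00546 after quantile normalization again, and PPARD was 0.12 with array weights. Leaving out arrays gave ranges of -0.098 to 0.013 for ESR2, -0.017 to 0.024 for PGR, -0.00748 to 0.026 for ESRRG, -0.032 to 0.080 for PPARA, -0.27 to 0.10 for PPARD, -0.11 to 0.00062 for RORA and -0.00275 to 0.027 for RORB. The cause was not tested. ESR1, ESRRA, ESRRB and PPARG kept their direction under all 18 alternatives, but leaving out arrays moved ESR1 over 0.023 to 0.20, ESRRA over 0.060 to 0.34 and ESRRB over -0.12 to -0.018. ESRRA passed the unadjusted threshold once shNDRG1 array 1 was left out. VLDLR passed after adjustment with array weights (adjusted p = 0.0257 from limma), where 19.8% of all genes had an unadjusted p under 0.05. With trended and robust variance its unadjusted p was 0.0487 from limma. Of 18 alternatives, the unadjusted p stayed under 0.05 in 18 for NDRG1, VLDLR and XBP1, 17 for THRSP and 15 for CA12. It did so in 12 for BCOR, 11 for NCOA6, PER2 and E2F8, and 10 for RDH10. With no level in the values, signal over background could not be weighed.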
